A study of Homo sapiens with 9 samples.

Results

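Genes of bone morphogenetic protein (BMP) signalling were examined in HCT116 stable cells that express either isoform of tazarotene-induced gene 1 (TIG1, gene symbol RARRES1). The members were 10 genes of this pathway, chosen with earlier results of these data known. By role they comprise the ligands BMP2, BMP4 and BMP7, the secreted antagonist CHRDL1 and the pseudoreceptor BAMBI. The others are the inhibitory SMADs SMAD6 and SMAD7 and the targets ID1, ID2 and ID3. The members were 10 of the 19775 genes to which the array annotation assigns a probe set of 1 symbol. Of the 19 probe sets annotated to them, 1 that also names ID2B was set aside, and 14 of the other 18 passed the filter on dim signals, covering 9 of the 10 genes.

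HCT116 is a colon cancer cell line. Every clone carried pSwitch, which encodes a regulator switched on by mifepristone (MFP), and every culture received 5 nM MFP for 24 h. TIG1A stable cells carried an inducible vector for the TIG1A isoform, TIG1B stable cells one for the TIG1B isoform, and control stable cells the empty pGene/V5 vector. Each group was 1 stable clone measured on 3 arrays, so that the isoform and other differences between clones cannot be told apart.

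BMPs are secreted ligands that bind pairs of type I and type II serine/threonine kinase receptors. The receptors phosphorylate SMAD1, SMAD5 and SMAD9, which enter the nucleus with SMAD4 and switch on targets, among them the ID genes and the inhibitory SMADs, which in turn dampen the pathway. In the colon, BMP signals favour the differentiation of epithelial cells away from the crypt base, where secreted antagonists keep them low.

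Each value is a signal intensity, unlogged, and the medians of the arrays ranged from 59.9 to 73.9. RARRES1 averaged 62881 in TIG1A cells, 39336 in TIG1B cells and 4.24 in control cells on probe set 206392_s_at, as the labels state. EPCAM, CDH1, KRT8, KRT18 and KRT19 lay at or above the array median on all 9 arrays, 5 of 10 markers of colon epithelium. The others did so on fewer arrays, CDX2 on 8, LGALS4 on 6, KRT20 on 4, VIL1 on 3 and CDX1 on 1. KRT20 averaged 84.2 in TIG1A cells, 62.5 in TIG1B cells and 39.9 in control cells, and LGALS4 59.7, 73.0 and 113. The fibroblast markers summed to 1414 to 1880 in TIG1A cells, 953 to 1103 in TIG1B cells and 537 to 996 in control cells, and COL1A1 alone averaged 1511 in TIG1A cells, 901 in TIG1B cells and 559 in control cells. COL1A2, COL3A1, DCN and LUM averaged at most 68.1 in any group. The 3 endothelial markers summed to 92.8 to 141 in TIG1A cells, 122 to 178 in TIG1B cells and 169 to 244 in control cells. Of these PECAM1 lay at or above the array median on all 9 arrays, with means of 87.3 in TIG1A cells, 128 in TIG1B cells and 168 in control cells, whereas VWF and CDH5 lay below it on all 9. The 3 measured leukocyte markers, PTPRC, CD3E and CD14, summed to 52.0 to 58.1 in TIG1A cells, 86.2 to 145 in TIG1B cells and 81.3 to 164 in control cells, and none lay at or above the array median on more than 3 of 9 arrays. The part of these markers in the results was not tested. In bulk RNA, fewer cells with a transcript and less of it per cell cannot be told apart.

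In TIG1A cells, SMAD6 and ID3 rose and CHRDL1 fell, 3 of 14 member probe sets. Of all 29977 probe sets tested, 6.06% passed the same threshold, an adjusted p under 0.05 in limma's moderated test with Benjamini-Hochberg adjustment. Those that rose were 2.86% and those that fell 3.2%, against 2 and 1 of the 14. The 1 fall, CHRDL1, passed the filter on dim signals through control cells alone, where it was highest. No conclusion is drawn from counting it. With each array centred on its median, the median log2 fold change of all probe sets was 0.12, against -0.04 with the deposited scaling, and 78.1% of all calls were rises, against 47.2%. The 3 members kept their calls and directions. In TIG1B cells 0 of the 14 passed, beside 1.78% of all probe sets. At an unadjusted p under 0.05 by limma, 8 of 14 passed in TIG1A cells, beside 25% of all probe sets, and 5 of 14 in TIG1B cells, beside 18.5%. In TIG1B cells the methods' t-test gave 5 unadjusted and 0 after Benjamini-Hochberg adjustment.

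**Figure D1:**
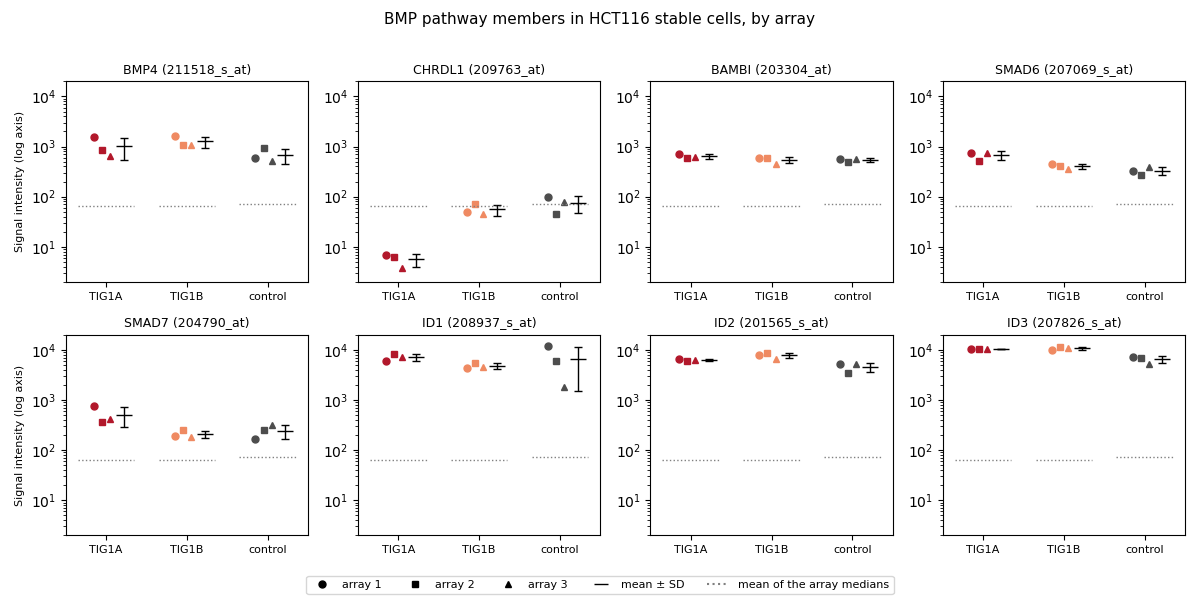
Signal intensity (log axis) of the brightest probe set of 8 members on each of the 3 arrays of TIG1A, TIG1B and control stable cells; black bars are mean ± SD and dotted lines the mean of the array medians of each group. CHRDL1 lies far below the array median in TIG1A cells, SMAD6 lies highest in TIG1A cells, and ID3 lies higher in both TIG1A and TIG1B cells than in control cells.

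The ligands were analysed first. BMP4, on chromosome 14, encodes a ligand that is widely used in gut development. Its intensity was 1559, 863 and 636 on the 3 arrays of TIG1A cells, 1635, 1084 and 1075 in TIG1B cells, and 579.8, 922 and 513 in control cells. All arrays of TIG1B cells lay above all control arrays, whereas TIG1A and control cells overlapped, and array 1 was the highest of each TIG1 line. Against control cells BMP4 had a log2 fold change of 0.55 (95% interval -0.32 to 1.41, adjusted p = 0.401, limma) in TIG1A cells and 0.93 (0.07 to 1.80, adjusted p = 0.239, limma) in TIG1B cells, and neither passed.

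BMP2, a ligand close to BMP4 in sequence, lay below the array median on all 9 arrays with both of its probe sets. On 205290_s_at it reached at most 41.1 in TIG1A cells, 6.69 in TIG1B cells and 28.1 in control cells, and it was not tested. Neither BMP2 probe set therefore gives a level in these cells.

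BMP7, which often pairs with BMP2 or BMP4 in a heterodimer, was close to the array median. On 209591_s_at it gave 49.7, 99.2 and 111 in TIG1A cells, 87.4, 89.3 and 91.5 in TIG1B cells, and 37.3, 34.2 and 107 in control cells. On 209590_at it gave 17.1, 83.4 and 44.8 in TIG1A cells, 90.5, 102 and 106 in TIG1B cells, and 100.5, 42.9 and 38.5 in control cells. On 209590_at all arrays of TIG1A cells lay below those of TIG1B cells, and both lines overlapped with control cells. On the log2 scale the fold changes of BMP7 were 0.67, -0.46 and -1.09 on its 3 tested probe sets in TIG1A cells and 0.79, 0.86 and -0.99 in TIG1B cells. The dimmest of these, 211259_s_at, gave 33.4, 57.8 and 13.3 in TIG1A cells, 8.96, 101 and 35.1 in TIG1B cells, and 31.1, 98.5 and 81.1 in control cells, and another, 211260_at, was too dim to test. The 3 did not share a direction, and none of these 6 changes passed (adjusted p from 0.412 to 0.659, limma).

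CHRDL1, on the X chromosome, encodes chordin-like 1, a secreted protein that binds BMPs and keeps them from their receptors. It is measured by 1 probe set, 209763_at. The intensity was 6.94, 6.13 and 3.69 in TIG1A cells, 49.5, 71.2 and 45.5 in TIG1B cells, and 99.0, 44.9 and 79.3 in control cells. Every array of TIG1A cells was below its array median, and so were 2 of 3 arrays of TIG1B cells and 1 of 3 of control cells. TIG1A cells did not overlap with either of the others, whereas TIG1B and control cells overlapped. CHRDL1 therefore passed the filter on dim signals through control cells alone, which meet it on 2 of 3 arrays.

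CHRDL1 fell in TIG1A cells relative to control cells, with a fitted log2 fold change of -3.71 (SE 0.36, adjusted p = 0.00713, limma). Because it was not above background there, only a bound holds, which is at least 1.11-fold lower with the array medians of TIG1A cells in place of its own values. In TIG1B cells the log2 fold change was -0.38 (95% interval -1.21 to 0.46, adjusted p = 0.614, limma). The direct difference of TIG1A minus TIG1B was -3.33 (adjusted p = 0.027, limma), with no bound above 1 since TIG1B cells were themselves near the median. The call against control cells held with each of the 9 arrays left out (adjusted p from 0.0098 to 0.0314, limma) and was lost in the methods' t-test after adjustment (0.0732). The call against TIG1B cells was lost without any one of the 6 TIG1A and TIG1B arrays, for which adjusted p ranged from 0.066 to 0.108.

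The bases before the annotated start of CHRDL1 are shown because it was the member that fell. They lie at chrX:110795818-110796067 (GRCh38.p14, minus strand, RefSeq) and are written 5′ to 3′ towards the start, with SMAD motifs in capitals where present.
CHRDL1: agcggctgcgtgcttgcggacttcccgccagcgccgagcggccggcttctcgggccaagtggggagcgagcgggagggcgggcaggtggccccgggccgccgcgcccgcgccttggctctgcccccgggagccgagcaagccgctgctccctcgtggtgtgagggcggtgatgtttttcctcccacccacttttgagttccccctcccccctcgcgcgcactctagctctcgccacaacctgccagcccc
Searched on both strands were GGCGCC, a GC-rich element bound by SMAD1 and SMAD5, the SMAD box CAGAC, and the E-box CACGTG. None of these letters is in this window. Of 35116 promoter windows of the same length, 16.4% hold GGCGCC, 38.0% hold CAGAC and 6.34% hold CACGTG.

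BAMBI, on chromosome 10, encodes a receptor-like membrane protein without a kinase domain that blocks receptor complexes. Its intensity was 722, 583 and 613 in TIG1A cells, 585, 580.2 and 447 in TIG1B cells, and 559.7, 482 and 557 in control cells. All arrays of TIG1A cells lay above all control arrays by a small margin, and TIG1B and control cells overlapped. The log2 fold change was 0.26 (95% interval -0.12 to 0.64, adjusted p = 0.367, limma) in TIG1A cells and 0.00 (-0.38 to 0.38, adjusted p = 0.993, limma) in TIG1B cells. A change beyond 0.64 on the log2 scale in TIG1A cells, or beyond 0.38 in TIG1B cells, lies outside these intervals.

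The window of BAMBI, at chr10:28677271-28677520 (plus strand), is shown for contrast, since it held the most motif matches of the member windows while BAMBI itself did not pass. GGCGCC and CAGAC, read on either strand, are in capitals.
BAMBI: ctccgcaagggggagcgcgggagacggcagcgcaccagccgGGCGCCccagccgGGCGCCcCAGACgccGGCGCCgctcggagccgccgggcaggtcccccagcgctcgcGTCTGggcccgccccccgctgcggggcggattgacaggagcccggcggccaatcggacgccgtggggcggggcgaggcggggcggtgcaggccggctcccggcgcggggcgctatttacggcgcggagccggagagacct
It holds 3 copies of GGCGCC and 2 of CAGAC. Of the 10 member genes 8 are in the promoter table, with 12 windows. GGCGCC is found in windows of 2 genes, BMP4 and BAMBI, and CAGAC in those of 4 genes, BMP4, BAMBI, SMAD7 and ID3. CACGTG is found in 1, a window of BMP4. A match to these letters is no evidence of binding.

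SMAD6, on chromosome 15, encodes an inhibitory SMAD that acts mainly on the BMP branch, in part by occupying type I receptors and SMAD1. On its brightest probe set, 207069_s_at, the intensity was 751, 514 and 730.0 in TIG1A cells, 444, 414 and 357 in TIG1B cells, and 324, 267 and 385 in control cells. TIG1A cells lay above TIG1B and control cells on every array, and TIG1B cells overlapped with control cells.

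SMAD6 rose in TIG1A cells, averaging 665 ± 131 in TIG1A cells and 325 ± 59.0 in control cells (SD, n = 3 each), a log2 fold change of 1.03 (SE 0.21, adjusted p = 0.0344, limma). In TIG1B cells, with a mean of 405 ± 44.3, the log2 fold change was 0.33 (95% interval -0.16 to 0.81, adjusted p = 0.446, limma). The difference of TIG1A minus TIG1B was 0.70 (0.22 to 1.18, adjusted p = 0.225, limma), which did not pass. The call in TIG1A cells was lost without control array 2 (adjusted p = 0.105), TIG1A array 1 (0.0863), 2 (0.055) or 3 (0.107), or TIG1B array 2 (0.0645) or 3 (0.06). Over 19 alternatives with adjustment the p ranged from 0.00476 to 0.141, and the log2 fold change stayed between 0.89 and 1.20.

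Against control cells the dimmer tested probe sets of SMAD6 pointed the same way in TIG1A cells without passing. On 209886_s_at the intensity was 98.3, 117 and 147 in TIG1A cells, 57.4, 68.9 and 85.7 in TIG1B cells, and 59.3, 8.64 and 73.5 in control cells. On 213565_s_at it was 92.1, 36.4 and 39.8 in TIG1A cells, 139, 38.1 and 79.5 in TIG1B cells, and 12.7, 26.8 and 17.1 in control cells. On both, TIG1A cells lay above control cells without overlap. On 213565_s_at the log2 fold change was larger in TIG1B cells, at 2.06, than in TIG1A cells, at 1.51, and these lines overlapped with each other. No bound above 1 holds for TIG1A cells on that probe set. Control arrays not above their medians leave bounds of at least 1.66-fold higher on 209886_s_at in TIG1A cells (adjusted p = 0.17, limma) and at least 1.05-fold higher on 213565_s_at in TIG1B cells (adjusted p = 0.109, limma). The probe set 209887_at was too dim to test.

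The window before the start of SMAD6, at chr15:66701986-66702235 (plus strand), is shown because SMAD6 rose. The capitals mark GTCTAGAC, a palindrome of the SMAD box letters that was searched for after the sequence had been seen.
SMAD6: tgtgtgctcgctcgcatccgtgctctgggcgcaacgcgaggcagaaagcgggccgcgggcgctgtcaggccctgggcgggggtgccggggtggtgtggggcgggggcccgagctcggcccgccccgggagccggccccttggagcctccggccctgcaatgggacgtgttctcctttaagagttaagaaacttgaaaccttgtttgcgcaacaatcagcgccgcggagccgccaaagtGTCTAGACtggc
It lies at -12 to -5 from the start. In all, 64 of 35116 windows (0.182%) hold it, and of the members SMAD6 alone does. Because the palindrome was searched for after this window had been seen, no conclusion is drawn from its presence or its rarity there. The motifs searched for in the CHRDL1 window are all absent from the SMAD6 window.

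SMAD3, which carries TGF-beta and activin signals, is the 2nd measured gene after SMAD6 on chromosome 15 in the GRCh38.p14 gene order. The pair moved in opposite directions in TIG1A cells. On 205397_x_at, a probe set whose suffix marks probes shared with other sequences, SMAD3 was 346, 262 and 336 in TIG1A cells, 259, 358 and 408 in TIG1B cells, and 1099, 902 and 825 in control cells. Both lines lay far below control cells without overlap. SMAD3 fell in TIG1A cells (log2 fold change -1.58, adjusted p = 0.0135, limma) and in TIG1B cells (-1.48, adjusted p = 0.0279, limma).

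On 205398_s_at SMAD3 fell in TIG1A cells too (-1.28, adjusted p = 0.0379, limma), and the value in TIG1B cells was -0.91 (adjusted p = 0.138, limma). Of its other 2 tested probe sets, the log2 values in TIG1A cells were -0.84 and -0.68 (adjusted p = 0.0916 and 0.0546, limma). The 24 measured genes around SMAD6 had a median log2 fold change of -0.01 in TIG1A cells and -0.09 in TIG1B cells, with 12 and 9 of them above 0. The 24 around ID3 had medians of -0.02 and 0.02, and those around CHRDL1 0.28 and 0.08. The part of the chromosomal neighbourhood in these changes was not tested.

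**Figure D2:**
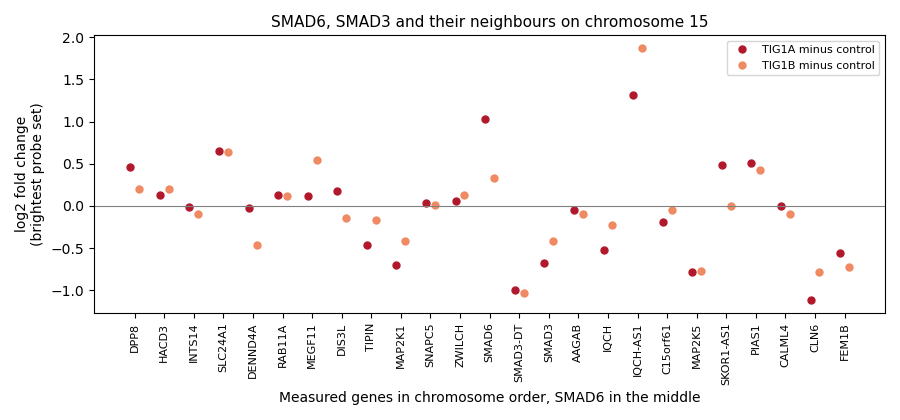
log2 fold change against control cells, TIG1A and TIG1B, of SMAD6 and of the 12 measured genes on each side of it in chromosome order, each on its brightest probe set. SMAD6 is at 1.03 in TIG1A cells and 0.33 in TIG1B cells; SMAD3, 2 places on, is at -0.68 in TIG1A cells and -0.42 in TIG1B cells on its brightest probe set, and the other points scatter on both sides of 0.

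SMAD7, on chromosome 18, encodes the inhibitory SMAD that acts on both the BMP and the TGF-beta branch. The intensity was 744, 358 and 410.0 in TIG1A cells, 189, 251 and 186 in TIG1B cells, and 164, 256 and 311 in control cells. TIG1A cells lay above TIG1B and control cells on every array, with array 1 at 1.94 times the mean of arrays 2 and 3, and TIG1B cells overlapped with control cells. The mean was 504 ± 209.7 in TIG1A cells, 208 ± 36.8 in TIG1B cells and 244 ± 74.0 in control cells (SD, n = 3 each).

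For SMAD7 the log2 fold change came to 1.02 in TIG1A cells (95% interval 0.24 to 1.80, adjusted p = 0.112, limma) and -0.19 in TIG1B cells (-0.97 to 0.59, adjusted p = 0.798, limma). The difference of TIG1A minus TIG1B was 1.21 (0.43 to 1.99, adjusted p = 0.197, limma). None of these passed. SMAD7 passed in TIG1A cells under 2 alternatives, a filter at the 75th percentile (adjusted p = 0.032) and limma's eBayes with trend and robust options (0.0489), and its adjusted p over the 19 alternatives with adjustment ranged up to 0.287.

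The ID proteins lack a DNA-binding domain and pair with E proteins, which they keep from DNA; in epithelial cells they hold back differentiation. ID3, on chromosome 1, had an intensity of 10213, 10442 and 10504 in TIG1A cells, 9918, 11313 and 11007 in TIG1B cells, and 7103, 6999 and 5231 in control cells. Both lines lay above control cells on every array and overlapped with each other. The means were 10386 ± 153 in TIG1A cells, 10746 ± 733 in TIG1B cells and 6444 ± 1052 in control cells (SD, n = 3 each).

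ID3 rose in TIG1A cells by 0.70 on the log2 scale (SE 0.16, adjusted p = 0.0418, limma), a fold of 1.63. In TIG1B cells the log2 fold change was slightly larger at 0.75 (95% interval 0.39 to 1.11, adjusted p = 0.0598, limma) but missed the threshold, and the difference of TIG1A minus TIG1B was -0.05 (-0.41 to 0.31, adjusted p = 0.933, limma). The call in TIG1A cells rested on all 9 arrays but control array 1. It was lost without control array 2 (adjusted p = 0.0916) or 3 (0.0707), TIG1A array 1 (0.0892), 2 (0.121) or 3 (0.119), or TIG1B array 1 (0.0551), 2 (0.0754) or 3 (0.077). In TIG1B cells it passed without control array 1 (0.0495). Over 19 alternatives with adjustment the p ranged from 0.00388 to 0.181 in TIG1A cells and from 0.00528 to 0.242 in TIG1B cells.

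The window of ID3, at chr1:23559502-23559751 (minus strand), is shown because ID3 rose, with CAGAC in capitals.
ID3: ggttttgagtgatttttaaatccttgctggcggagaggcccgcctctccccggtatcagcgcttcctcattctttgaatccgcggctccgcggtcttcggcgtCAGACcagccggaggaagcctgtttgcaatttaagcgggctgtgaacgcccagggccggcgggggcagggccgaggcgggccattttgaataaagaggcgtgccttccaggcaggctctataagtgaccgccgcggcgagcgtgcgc
The single CAGAC lies at -147 to -143 from the start.

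ID2, on chromosome 2, had an intensity of 6449, 6130.2 and 6324 in TIG1A cells, 7949, 8614 and 6678 in TIG1B cells, and 5128, 3489 and 5228 in control cells on 201565_s_at. All arrays of TIG1B cells lay above those of TIG1A cells, which in turn lay above those of control cells. Relative to control cells the log2 fold change of ID2 came to 0.47 in TIG1A cells (95% interval 0.03 to 0.91, adjusted p = 0.174, limma) and 0.76 in TIG1B cells (0.32 to 1.20, adjusted p = 0.0928, limma). On 201566_x_at, which shares probes with other sequences, both lines again lay above control cells without overlap, at 0.71 in TIG1A cells and 0.95 in TIG1B cells on the log2 scale (adjusted p = 0.184 and 0.148, limma). In TIG1B cells both probe sets passed under 2 of 19 alternatives with adjustment. These were the filter at the 75th percentile (adjusted p = 0.0201 and 0.0419, limma) and trend and robust options (0.0139 and 0.0411). In TIG1A cells neither passed under any of them.

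ID1, on chromosome 20, had an intensity of 5962, 8405 and 7347 in TIG1A cells, 4411, 5555 and 4565 in TIG1B cells, and 11938, 6018 and 1803 in control cells. The control arrays were 6.62 times apart from lowest to highest and spanned both lines, whereas TIG1A cells lay above TIG1B cells on every array. For ID1 the log2 fold change came to 0.50 in TIG1A cells (95% interval -0.87 to 1.88, adjusted p = 0.634, limma) and -0.07 in TIG1B cells (-1.44 to 1.30, adjusted p = 0.961, limma). Leaving out control array 3 gave -0.24 for TIG1A cells. Leaving out control array 1 or 2 gave 0.55 and 0.05 for TIG1B cells, so that 1 control array decided each sign. The 24 measured genes around ID1 had a median log2 fold change of -0.43 in TIG1A cells and -0.30 in TIG1B cells.

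**Figure D3:**
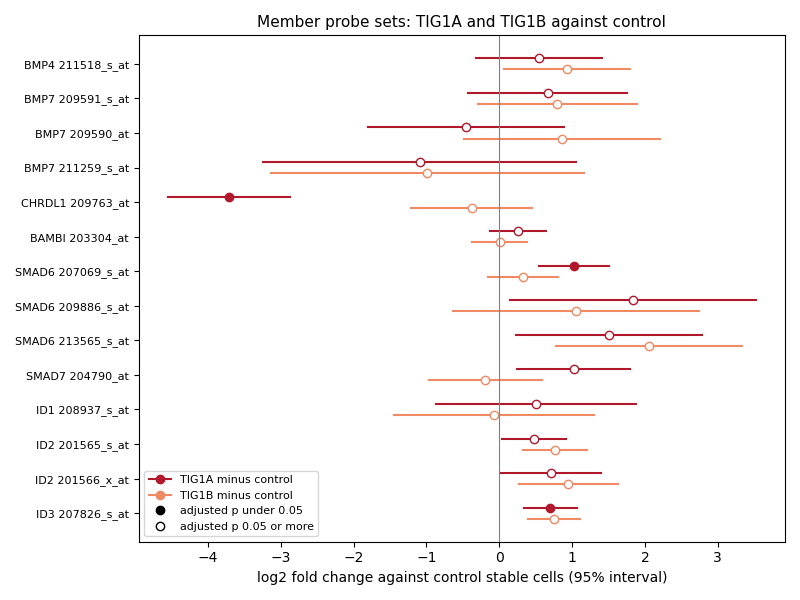
log2 fold change against control cells (x axis) of the 14 member probe sets (y axis) in TIG1A and TIG1B cells, with 95% intervals; filled points have an adjusted p under 0.05. Filled are CHRDL1 at -3.71, SMAD6 at 1.03 and ID3 at 0.70, all in TIG1A cells; the intervals of ID1 and of the BMP7 probe sets are wide and include 0.

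Described as a list, the 14 member probe sets had a median log2 fold change of 0.61 in TIG1A cells and 0.76 in TIG1B cells, against medians of -0.04 and -0.03 over all probe sets tested. Above 0 were 11 of 14 in TIG1A cells and 10 of 14 in TIG1B cells. Of the 14, 9 did not overlap with control cells in TIG1A cells, 8 higher and 1 lower, beside 30.7% of all probe sets (13.9% higher, 16.9% lower). In TIG1B cells 5 did not overlap, 5 higher and 0 lower, beside 24.9% (10.8% higher, 14% lower). Between TIG1A and TIG1B cells 1 of 14 passed, CHRDL1, beside 0.417% of all probe sets, 0.14% lower in TIG1A cells and 0.277% higher. Neither of these lines met the filter on dim signals for CHRDL1, which passed it through control cells alone. No conclusion is drawn from this count. Both lines were set against the same 3 control arrays, and several probe sets share a gene. The members were chosen with earlier results of these data known, so these counts and medians are descriptions only.

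The rest of the pathway was covered by lists of 77 other genes, of which 73 have a probe set and 54 passed the filter, with 135 probe sets. In TIG1A cells 11 of these 135 rose and 6 fell, beside 2.86% and 3.2% of all probe sets, and in TIG1B cells 2 rose and 1 fell, beside 0.701% and 1.08%. Their median was 0.10 in log2 fold change in TIG1A cells, against 0.01 in TIG1B cells. Among the other BMP antagonists, which include NOG and TWSG1, 0 of 10 probe sets passed in either line by limma, with 2 in each at an unadjusted p under 0.05, beside 25% of all probe sets in TIG1A cells and 18.5% in TIG1B cells. The type I receptor ACVR1 and the shared partner SMAD4, both named after their values were seen, were well above the array medians. ACVR1 gave 1135, 1071 and 1039 in TIG1A cells, 1096, 1124 and 1122 in TIG1B cells, and 1282, 1016 and 1121 in control cells on 203935_at, with all groups overlapping. SMAD4 gave 2188, 2207 and 2127 in TIG1A cells, 1792, 2266 and 2164 in TIG1B cells, and 2489, 2298 and 2504 in control cells on 202527_s_at, with both lines below control cells. Its log2 fold changes were -0.16 in TIG1A cells and, in TIG1B cells, -0.23 (adjusted p = 0.496 and 0.396, limma). Other SMAD4 probe sets pointed the other way without passing, 202526_at at 0.73 in TIG1A cells and 0.10 in TIG1B cells and 235725_at at 0.57 in TIG1A cells and 0.24 in TIG1B cells (adjusted p from 0.202 to 0.913, limma). Among BMP receptors and co-receptors 0 of 17 rose and 1 fell in TIG1A cells, beside 2.86% and 3.2% of all probe sets. The fall was on a probe set of RGMB, named after its value was seen.

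Among the other BMP targets 4 of 16 probe sets rose and 0 fell in TIG1A cells, beside 2.86% and 3.2% of all probe sets. At an unadjusted p under 0.05 by limma 10 passed there, beside 25%. The list's median log2 fold change was 0.59, against -0.04 over all probe sets. In TIG1B cells 0 passed by limma and 8 had an unadjusted p under 0.05, beside 18.5% of all probe sets. The median there was 0.03, against -0.03. The list was chosen with earlier results of these data known, and several of its probe sets share a gene. ID4, the remaining ID gene, was 498, 646 and 678 in TIG1A cells, 391, 330.3 and 311 in TIG1B cells, and 187, 208 and 287 in control cells on 209291_at. The 3 groups did not overlap, with TIG1A cells highest and TIG1B cells between. ID4 rose in TIG1A cells (log2 fold change 1.43, adjusted p = 0.0147, limma, and 1.57, adjusted p = 0.0151, on 226933_s_at), and the value in TIG1B cells was 0.62 (adjusted p = 0.176, limma). Of its other tested probe sets, 209293_x_at gave -0.04 in TIG1A cells (adjusted p = 0.939, limma).

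HEY1, a transcriptional repressor that responds to both Notch and BMP signals, was 394, 358 and 340.1 in TIG1A cells, 214, 203 and 273 in TIG1B cells, and 123, 101 and 161 in control cells on 218839_at. The order of the groups was that of ID4, again without overlap. HEY1 rose in TIG1A cells (log2 fold change 1.52, adjusted p = 0.0128, limma), and its value in TIG1B cells was 0.85 (adjusted p = 0.0858, limma). On 44783_s_at it was 1.13 in TIG1A cells (adjusted p = 0.0579, limma). No probe set of MSX1, RUNX2, ATOH8 or GATA2, the other targets that were bright enough to test, passed in either line, and DLX5 was too dim.

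MSX2 encodes a homeobox repressor and is a classical BMP target. On 205555_s_at it was 669, 796 and 647 in TIG1A cells, 270.3, 275 and 389.9 in TIG1B cells, and 343, 348 and 291 in control cells. TIG1A cells lay above the others, which overlapped. MSX2 rose in TIG1A cells against control cells (log2 fold change 1.10, adjusted p = 0.021, limma), and its value in TIG1B cells was -0.09 (adjusted p = 0.836, limma). The difference of TIG1A minus TIG1B was 1.19 there (adjusted p = 0.052, limma).

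On 210319_x_at, which shares probes with other sequences, MSX2 was 1071, 902 and 900.1 in TIG1A cells, 453, 435 and 549 in TIG1B cells, and 769, 729 and 694 in control cells. Here the 3 groups did not overlap, and TIG1B cells lay below control cells. Against control cells the log2 fold change was 0.39 in TIG1A cells (adjusted p = 0.154, limma) and -0.61 in TIG1B cells (adjusted p = 0.0858, limma), and neither passed. The difference of TIG1A minus TIG1B, 1.00, passed with all 9 arrays (adjusted p = 0.0416, limma) and was lost without any one of them (0.0513 to 0.164).

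**Figure D4:**
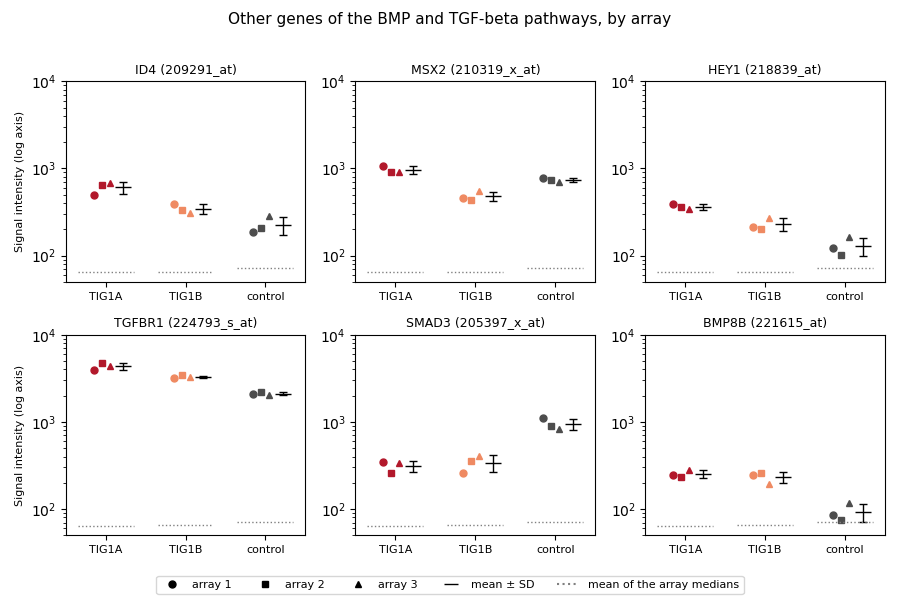
Signal intensity (log axis) of ID4, MSX2, HEY1, TGFBR1, SMAD3 and BMP8B on each array of TIG1A, TIG1B and control stable cells; black bars are mean ± SD and dotted lines the mean of the array medians. ID4, HEY1 and TGFBR1 are highest in TIG1A cells and between in TIG1B cells, and SMAD3 is low and BMP8B high in both lines. MSX2, drawn on 210319_x_at, is highest in TIG1A cells, between in control cells and lowest in TIG1B cells.

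In the TGF-beta and activin arm 3 of 26 probe sets rose and 3 fell in TIG1A cells, beside 2.86% and 3.2% of all probe sets. In TIG1B cells 1 rose and 1 fell, beside 0.701% and 1.08%. TGFBR1, the type I receptor for TGF-beta, was 3988, 4757 and 4387 in TIG1A cells, 3236, 3426 and 3265 in TIG1B cells, and 2092, 2189 and 2049 in control cells on 224793_s_at, with no overlap among the groups. On that probe set TGFBR1 rose in TIG1A cells (log2 fold change 1.05, adjusted p = 0.00951, limma) and in TIG1B cells (0.65, adjusted p = 0.0472, limma). Its other tested probe sets did not pass. On 206943_at the values were 0.59 in TIG1A cells and 0.36 in TIG1B cells (adjusted p = 0.109 and 0.369, limma). On 236561_at, close to the array median, they were 0.42 and -0.78 (adjusted p = 0.756 and 0.609, limma). ACVR1B, an activin type I receptor, rose in TIG1A cells (0.70, adjusted p = 0.0251, limma), and its value in TIG1B cells was 0.32 (adjusted p = 0.229, limma). INHBB and TGFB1, named after their values were seen, complete the calls of this arm in TIG1A cells, together with SMAD3.

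BMP8B, one of 4 other BMP ligands that passed the filter, was 247, 233 and 279.9 in TIG1A cells, 246, 261 and 195 in TIG1B cells, and 85.1, 74.9 and 117 in control cells on 221615_at. Both lines lay above control cells and overlapped with each other. BMP8B rose in TIG1A cells (log2 fold change 1.48, adjusted p = 0.0139, limma) and in TIG1B cells (1.35, adjusted p = 0.0298, limma) on this probe set. Its other 2 tested probe sets did not follow, at 0.03 and -0.58 in TIG1A cells (adjusted p = 0.935 and 0.128, limma).

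Among the E proteins that ID proteins bind, TCF12 rose in TIG1A cells on 208986_at (log2 fold change 0.88, adjusted p = 0.0223, limma), with 0.67 in TIG1B cells (adjusted p = 0.0767, limma). It was 1 of 12 E protein probe sets to pass in TIG1A cells, beside 6.06% of all probe sets, and 0 passed in TIG1B cells. Among the signalling SMADs and their regulators 2 of 34 probe sets rose and 2 fell in TIG1A cells, beside 2.86% and 3.2% of all probe sets. These were on TOB1 and SMURF2, which were named after their values were seen. Other tested probe sets of SMURF2 did not share a direction. In TIG1A cells 230820_at gave 0.89 and 232020_at -1.12 on the log2 scale (adjusted p = 0.232 and 0.0983, limma). In TIG1B cells they gave 1.31 and -0.29 (adjusted p = 0.152 and 0.701, limma). SMURF2, TGFB1, RGMB and the 205398_s_at value of SMAD3 missed the threshold with median centring of each array. Of the convertases and proteases that process BMPs and chordin, 0 of 14 probe sets passed in either line by limma, with 2 in each at an unadjusted p under 0.05, beside 25% of all probe sets in TIG1A cells and 18.5% in TIG1B cells.

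In TIG1A cells the calls of TGFBR1 and HEY1 held with each of the 9 arrays left out in turn. BMP8B lost its call there without TIG1A array 3 (adjusted p = 0.0555) and SMAD3 on 205397_x_at without TIG1A array 2 (0.0507). ID4 on both probe sets and TCF12 lost theirs without control array 2, TIG1A array 2 or TIG1A array 3 (0.0568 to 0.0851). MSX2 on 205555_s_at lost it without control array 2 or 3 or any TIG1A array (0.0512 to 0.0777), and ACVR1B without any but control array 1 and TIG1B array 1 (0.054 to 0.0866). INHBB lost its call without 4 of the 9 arrays, control array 2 or any TIG1A array (0.0585 to 0.0846), TGFB1 and both probe sets of SMURF2 without 7 (0.0525 to 0.13), RGMB without 8 (0.0661 to 0.149), and TOB1 without 7 on 228834_at and 8 on 202704_at (0.0547 to 0.128). In TIG1B cells the call of TGFBR1 was lost without any one array (0.0524 to 0.162), that of SMAD3 without any but control array 1 and TIG1A array 1 (0.0515 to 0.0888), and that of BMP8B without control array 2, TIG1A array 2 or 3, or any TIG1B array (0.0568 to 0.106).

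The genes most like each changed member across the 9 arrays, by Pearson's r of log2 intensity among 13407 genes, were BTG3, ANLN and PDLIM5 for CHRDL1 (r = 0.985, 0.978 and 0.976). For SMAD6 they were IL10RA, ZNF252P and TUBD1 (r = 0.972, 0.969 and 0.968), and for ID3 BEX3, PDHB and MLF1 (r = 0.982, 0.981 and 0.978). These are descriptions over 3 groups of 3 arrays. CHRDL1 lay below the array median on all TIG1A arrays, so no conclusion is drawn from its r values.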

How the data were processed

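Total RNA of 9 cultures was hybridised to Affymetrix HG-U133 Plus 2.0 arrays. The authors deposited 1 unlogged signal intensity per probe set and array, computed in GCOS and scaled to a common target. The mean without the lowest and highest 2% was checked and is 500 on each array, and no pair of arrays is identical. No detection calls were used here, so the filter on Present calls was replaced by an intensity filter: kept were probe sets at or above the 50th percentile of the array in 2 or more of the 3 arrays of any group. Of 54675 probe sets, 62 array controls were set aside and 29977 were kept. Genes were named from the platform annotation (41097 probe sets with 1 symbol, 1801 with several, 11777 with none) and updated by gene number.

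Intensities under 1 were set to 1 and log2-transformed. A mean per group was fitted over all 9 arrays (6 residual degrees of freedom) with limma 3.58.1 in R 4.3.3, and p-values were adjusted by Benjamini-Hochberg over all kept probe sets, with a threshold of 0.05. The script was tested on simulated data. A probe set below the array median on all arrays of a group has only a bound there: the group means of log2 values were compared after raising the dim group to its array medians. Fold changes use log2 means. The members and lists were chosen with earlier results of these data known. Named were all members, the 8 other genes of the lists with the smallest p past the threshold, the 3 genes most like each changed member, and RARRES1. Alternatives were quantile normalization, median centring, an offset of 50, the filter dropped or moved to the 75th percentile, the 6 arrays of a comparison alone, a replicate block, eBayes with trend and robust options, the methods' t-test, each array left out, and, added after the values were seen, both TIG1 arrays numbered 1 left out. Promoter windows of 250 bases came from RefSeq (GRCh38.p14). The series' design text gives MFP as 5 µM, where the labels and the methods give 5 nM, which was taken. The labels call the 3 samples of a group replicates of a stable clone, and p-values measure the spread between these cultures. The number of arrays limits the precision.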

Additional observations from a re-analysis of the deposited data

Results flagged for a closer look

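TIG1A and TIG1B cells, 1 stable clone each, differed in a direct test for 2 probe sets among the members and named pathway genes. For CHRDL1 on 209763_at the difference of TIG1A minus TIG1B was -3.33 on the log2 scale (adjusted p = 0.027, limma), with means of 5.59 ± 1.69 in TIG1A cells and 55.4 ± 13.8 in TIG1B cells (SD, n = 3 each), lower on 3 of 3 arrays. Neither group met the filter on dim signals, which CHRDL1 passed through control cells alone, so that the size of this difference has no bound, and the call was lost without a filter or without any one of the 6 arrays compared (adjusted p from 0.066 to 0.108 for the arrays, limma). For MSX2 on 210319_x_at it was 1.00 (adjusted p = 0.0416, limma), with means of 958 ± 98.3 in TIG1A cells and 479 ± 61.3 in TIG1B cells (SD, n = 3 each), higher on 3 of 3 arrays. It passed under 4 of 19 alternatives with adjustment and was lost without any one of the 9 arrays (adjusted p from 0.0513 to 0.164, limma).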

How the results depend on the processing

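The count of member probe sets that passed in TIG1A cells, 3 in the reported setting, was 1 without a filter, with the 6 arrays of the comparison alone, with a replicate block and with both TIG1 arrays numbered 1 left out (added after the data were seen), and 0 in the methods' t-test after adjustment. It ranged from 1 to 3 with each array left out. In TIG1B cells the count of 0 became 1 with an offset of 50, 3 with the filter at the 75th percentile, 3 with trend and robust options and 5 in the methods' t-test unadjusted, and 0 to 1 with each array left out. Between TIG1A and TIG1B cells the count of 1 became 0 with the offset, without a filter, with the 6 arrays alone, with the replicate block, with trend and robust options, in the methods' t-test after adjustment and without both arrays numbered 1, 5 in the unadjusted t-test, and 0 to 1 with each array left out. CHRDL1 passed in TIG1A cells in every one of these settings that tested it but the adjusted t-test (0.0732). The filter at the 75th percentile did not keep CHRDL1, and there ID3, SMAD6 and SMAD7 made up the 3, and SMAD7 the 1 between the lines. Over all probe sets the calls, 1818 in TIG1A cells, 535 in TIG1B cells and 125 between them, ranged over the adjusted alternatives from 59 to 3601, from 2 to 1794 and from 0 to 676, and were 6150, 4594 and 4775 in the unadjusted t-test. Fewer arrays leave fewer degrees of freedom, and other causes were not tested.

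With control arrays, the correlation of deviations at the same replicate number lay from -0.04 to 0.01. Between TIG1A and TIG1B cells it was 0.19, 0.05 and 0.06 for numbers 1, 2 and 3. At unlike numbers it ranged from -0.13 to 0.09 between these lines. Whether arrays of the same number were handled together was not tested, so the replicate block is a check only.

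Of the log2 fold changes that did not pass, some turned sign. With both TIG1 arrays numbered 1 left out BMP7 on 209590_at was 0.15 in TIG1A cells, BMP7 on 209591_s_at 0.21 between the lines and BAMBI -0.063 in TIG1B cells, and with median centring ID1 was 0.075 in TIG1B cells. With each array left out, the ranges were -0.067 to 0.13 for BAMBI on 203304_at in TIG1B cells, -0.99 to 0.15 for BMP7 on 209590_at in TIG1A cells, -0.35 to 0.23 for BMP7 on 209591_s_at between the lines, -1.01 to 0.73 for BMP7 on 211259_s_at between the lines, -0.24 to 1.12 for ID1 on 208937_s_at in TIG1A cells, -0.81 to 0.55 for ID1 on 208937_s_at in TIG1B cells and -0.45 to 0.0079 for SMAD7 on 204790_at in TIG1B cells.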
